A study of Mus musculus with 2 samples.

Results

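Gpr17 and 6 other genes of the stage at which an oligodendrocyte precursor commits to becoming a myelinating cell were compared between FoxO1-deficient and FoxO1-heterozygous AgRP neurons. The 7 genes (Gpr17, Bmp4, Enpp6, Neu4, Tcf7l2, Bcas1 and Itpr2) were taken by name, and their probe sets were those whose platform annotation gave that 1 symbol. This selected 157 of 318760 probe sets with 1 symbol, for 7 of 22296 symbols. Each of the 7 genes read lower on the KO array than on the heterozygous array, as did 65.2% of all evaluated genes. Gpr17, Bcas1 and Enpp6, 3 of the 7, were at least 2-fold lower, against 1.12% of all evaluated genes.

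The samples were mouse hypothalamic neurons that express agouti-related peptide (AgRP), a peptide that drives feeding, collected by fluorescence-activated cell sorting. One group was homozygous FoxO1 KO and the other heterozygous FoxO1 KO, on a mixed genetic background, from littermates matched for age and sex. Each group was 1 array of biotin-labelled RNA, for 2 arrays in all. Both genotypes carry a FoxO1 deletion, and a wild-type array was not analysed here. The sources used here do not state how the deletion was driven, the age of the mice or how many were pooled. The series title names Gpr17 as a FoxO1 target in AgRP neurons, so the comparison asks whether Gpr17 and the genes that accompany it in another cell type differ with FoxO1 dose.

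Gpr17 is an orphan G protein-coupled receptor related to the P2Y and cysteinyl leukotriene receptors. In brain it is best known from the oligodendrocyte lineage, where it is made transiently: early precursors carrying Pdgfra lack most of it, committed precursors carry it, and it is turned off before myelin is made. Bmp4, Neu4, Bcas1, Enpp6, Tcf7l2 and Itpr2 mark that same window and the newly formed oligodendrocytes that follow. Several of them are not restricted to it: Tcf7l2 is also made by thalamic and other neurons and by astrocytes, and Itpr2 by astrocytes.

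The deposited values are on a log2 scale, 1 per probe set and array. A probe set is a short group of probes against a part of a gene, and its brightness depends on its own probes, so levels were compared between arrays and never between genes. A probe set was used for a gene value when its mean over both arrays reached the median over all probe sets, a floor of 5.86. A gene's difference is the median over these probe sets of KO minus heterozygous KO, and genes with at least 3 of them were evaluated. A gene was called when this difference was at least 1 in size, which is 2-fold, with 75% or more of the probe sets in that direction. Levels printed for a gene are medians over the same probe sets on each array separately, so their gap need not equal the difference. Each SD printed here was taken across the probe sets of 1 gene, and says how far they disagree within 1 pair of arrays, not how mice vary. With 1 array per genotype no test of a difference is possible.

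Over the 16639 genes evaluated the median difference was -0.11, and 65.2% of them were below 0. Across all probe sets the correlation of both arrays was r = 0.920, a description with no replicate behind it. Foxo1, the targeted gene, read 7.46 (KO) against 7.98 (heterozygous), a difference of -0.48 (SD 0.53, 8 of 8 probe sets lower) that did not reach 2-fold. No source used here says which Foxo1 probe sets cover the deletion, and those outside it check nothing. Agrp, which defines the sorted cells, had levels of 12.44 against 11.97 and a difference of 0.27 (6 of 7 probe sets higher). Npy had levels of 12.19 against 12.31 and a difference of 0.14 (4 of 6 higher). These peptides of AgRP neurons were bright on both arrays.

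All 7 genes passed the floor and were evaluated, on 112 of their 157 probe sets. Their differences ran from -2.10 for Gpr17 to -0.28 for Neu4, with a median of -0.76. The 7 genes were chosen with earlier results of these data known, and the series title names Gpr17. Their shares and ranks among all genes therefore describe them and test nothing. At least 2-fold lower were 3 of 7, while 1.12% of all evaluated genes were. None was at least 2-fold higher, against 1.13% of all genes. At least 1.5-fold lower were 5 of the 7, with Tcf7l2 and Itpr2 added, against 4.90% of all genes. Gpr17 was the 23rd lowest of 16639 genes, Bcas1 the 29th and Enpp6 the 34th. After Enpp6 at -1.78 the order went on with Tcf7l2 at -0.76, Itpr2 at -0.68, Bmp4 at -0.55 and Neu4. The step from Enpp6 to Tcf7l2, 1.01, was larger than the SD of either gene, while each of the other 5 steps was under the smaller SD of its 2 genes. By this summary the members stood as 3 genes lower by 3.43-fold to 4.28-fold and 4 genes with smaller differences. The split depended on the setting: with both arrays required to reach the floor, Bcas1 was at -1.08 and Tcf7l2 at -0.80. With the mean over probe sets, Enpp6 was at -1.66 and Itpr2 at -1.22.

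**Figure D1:**
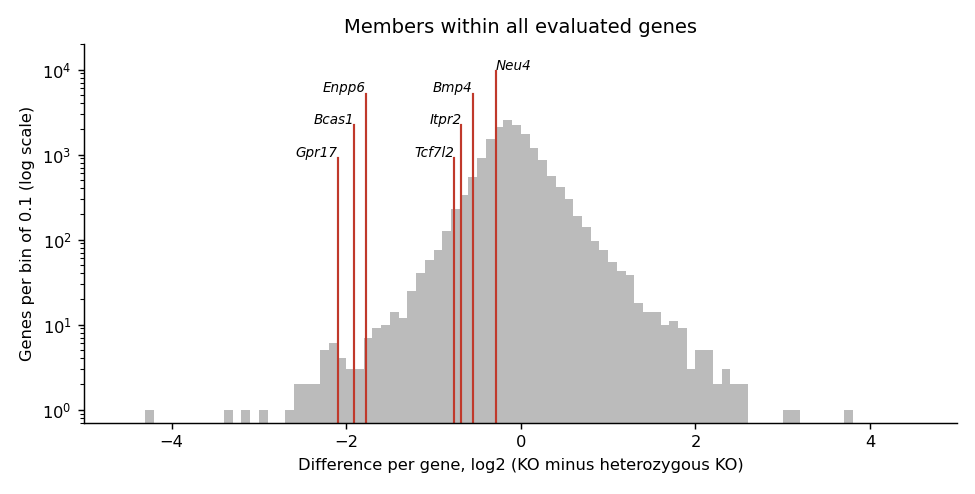
Histogram of the log2 difference (KO minus heterozygous KO) of all 16639 evaluated genes in bins of 0.1, on a logarithmic count axis, with red lines at the 7 members. Gpr17, Bcas1 and Enpp6 lie in the lower tail at -2.10, -1.91 and -1.78, and the other 4 lie between -0.76 and -0.28.

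The RefSeq promoter table (GRCm38.p6) held windows for 5 of the 7 genes, all but Gpr17 and Bcas1, and 6 windows in all since Tcf7l2 has 2. The 250 bases before the start in 2 of them are shown because these genes stand at the ends of the range of differences among the 5, Enpp6 at -1.78 and Neu4 at -0.28. The windows are chr8:46986637-46986886 for Enpp6 and chr1:94020243-94020492 for Neu4, both on the plus strand. Capitals mark the letters AAACA or, on the other strand, TGTTT.
Enpp6: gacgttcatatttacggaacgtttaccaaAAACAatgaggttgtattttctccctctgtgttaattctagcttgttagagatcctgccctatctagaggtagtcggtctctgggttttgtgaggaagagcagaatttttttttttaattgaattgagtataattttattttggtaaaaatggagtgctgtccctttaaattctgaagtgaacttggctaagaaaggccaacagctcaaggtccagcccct
Neu4: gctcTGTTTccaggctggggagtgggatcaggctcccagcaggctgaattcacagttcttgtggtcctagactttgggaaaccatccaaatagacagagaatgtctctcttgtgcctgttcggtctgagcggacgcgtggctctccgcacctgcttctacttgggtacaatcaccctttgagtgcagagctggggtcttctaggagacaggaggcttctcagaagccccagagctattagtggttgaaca
The FoxO binding motif GTAAACA and the insulin response motif TGTTTTG were searched on both strands, and neither was found in any of the 6 windows. They occurred in 3.17% and 5.56% of all 32851 windows of that length. The core AAACA, which lies within both motifs and was chosen after neither had been found, was in 4 of the 6 windows and in 46.4% of all windows. It stood 221 bases before the start in Enpp6 and 246 bases before it in Neu4. Enpp6 and Neu4 each held 1 copy despite their different array values, and the absence of the longer letters says only that they are not in these windows.

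Gpr17, the receptor, was measured by 5 probe sets, all above the floor. Probe set 5339962 read 5.42 (KO) against 8.67 (heterozygous), a difference of -3.25. Probe set 5482319 read 7.11 against 10.08, a difference of -2.97, and probe set 5102896 read 6.26 against 8.36, a difference of -2.10. These 3 probe sets were each more than 4-fold lower on the KO array. The other 2 differed less: probe set 5171208 read 8.66 against 9.19 and probe set 5060174 read 6.40 against 6.30. The gene value was -2.10 (SD 1.48, 4 of 5 lower), or 4.28-fold, and this SD was as large as or larger than that of 95.3% of genes. With only the 4 probe sets at or above the floor on both arrays the difference was -1.32, still past the 2-fold rule.

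Bmp4, a secreted ligand that holds back oligodendrocyte maturation, had 3 probe sets above the floor and 3 under it. The bright ones read 7.69, 6.54 and 5.87 on the KO array against 7.80, 8.30 and 6.42 on the heterozygous array. All 3 were lower, by -0.11, -1.76 and -0.55. The gene value was -0.55 (SD 0.86) and did not reach 2-fold. The dim ones had differences of -0.72, 0.05 and -0.10, and over all 6 probe sets the median was -0.33.

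The other genes of the pathway Bmp4 belongs to did not share one direction. Of 21 listed BMP ligands, receptors, Smads, inhibitors and Id targets, 19 were evaluated, with a median of -0.10. Below 0 were 10 and above it 9, where 65.2% of all evaluated genes were below 0. None reached 2-fold in either direction, and of all genes only 1.12% were called lower and 1.13% higher. The type II receptor Bmpr2 was lowest at -0.82 and Id3, an Id-family target of BMP signalling, highest at 0.66 (7.23 on the KO array against 6.57, with 3 of 3 probe sets higher). The receptor Bmpr1a stood at 0.63 and the BMP antagonist Nog at -0.10.

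Tcf7l2, a transcription factor that pairs with beta-catenin and serves the step from precursor to newly formed oligodendrocyte, had 26 bright probe sets of 31. Of the bright ones 21 were lower and 9 were at least 2-fold lower, with a gene value of -0.76 (SD 0.92, levels 7.05 against 7.92). Its brightest probe set did not differ, with 10.02 (KO) and 10.00 (heterozygous). The lowest read 5.76 against 8.67, a difference of -2.91. At the other end, 1 probe set was at least 2-fold higher, at 8.49 against 6.88. Only probe sets annotated Tcf7l2 were taken, since its older name Tcf4 is now the symbol of another gene.

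Partners of Tcf7l2 differed less. Of 11 listed genes of beta-catenin signalling and of TCF partners and co-repressors, 10 were evaluated, with a median of -0.18. Of these 8 were below 0, against 65.2% of all evaluated genes. None reached 2-fold, and of all genes only 1.12% were called lower and 1.13% higher. Ctnnb1, which encodes beta-catenin, was lowest at -0.59, and Axin2, a common target of the pathway, was highest at 0.53 (10 of 14 probe sets higher). Lef1, a relative of Tcf7l2, stood at -0.20.

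Enpp6, a choline-specific phosphodiesterase that marks newly forming oligodendrocytes, had the most even difference of the 3 called genes. Its 7 bright probe sets were all lower, 6 of them by at least 2-fold. The brightest read 6.84 (KO) against 8.59 (heterozygous), and the largest gap was 5.98 against 8.31, a difference of -2.33. The smallest was 6.28 against 6.66. The gene value was -1.78 (SD 0.65), or 3.43-fold, and its SD was close to the median SD of all genes, 0.68. Of its 8 dim probe sets 6 were lower too, and with all 15 the difference was -1.28 and still called.

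Neu4, a sialidase that removes terminal sialic acid from glycans, was lower in 12 of 12 probe sets, and by little in most. Its 2 brightest probe sets read 8.00 and 7.99 on the KO array against 8.24 and 8.16 on the heterozygous array. A minority stood out: 3 of 8 bright probe sets were at least 2-fold lower, the largest at 4.62 against 7.48, a difference of -2.86. The median over the 8 was -0.28 (SD 0.95), while their mean was -0.78. With differences centred on the median of all genes Neu4 stood at -0.17.

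Bcas1, a protein of oligodendrocytes that are starting to make myelin, had a low median over widely spread probe sets. Of 12 bright ones 9 were lower, 8 by at least 2-fold and 6 by at least 4-fold. The largest gap was 5.15 on the KO array against 10.27 on the heterozygous array, a difference of -5.12. The brightest probe set read 8.43 against 10.78. Yet 3 probe sets were not lower, and 1 of these was at least 2-fold higher, at 9.69 against 8.65. The gene value was -1.91 (SD 1.76), or 3.75-fold, with an SD at or above that of 98.2% of genes. Its share of lower probe sets was exactly at the 75% the rule asks for. The call was lost with a floor at the 75th percentile of the mean level, where the difference was -1.51 with 5 of 7 lower, and with both arrays required to reach the floor, where it was -1.08 with 6 of 9 lower.

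Itpr2, a receptor that releases calcium from internal stores on binding inositol trisphosphate, had the most probe sets, 51 bright and 21 dim. Of the bright ones 44 were lower, 20 by at least 2-fold and 12 by at least 4-fold, and 2 were at least 2-fold higher. The largest gap among all members was an Itpr2 probe set that read 4.12 (KO) against 11.39 (heterozygous), a difference of -7.28. The next largest within Itpr2 were 5.70 against 10.51 and 5.13 against 9.54. Its brightest probe set by the mean of both arrays read 9.66 against 10.66. The quartiles of its differences were -1.95 and -0.20. The median was -0.68 (SD 1.66, levels 7.32 against 8.16), short of 2-fold, while the mean over the same probe sets was -1.22 and passed the rule.

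**Figure D2:**
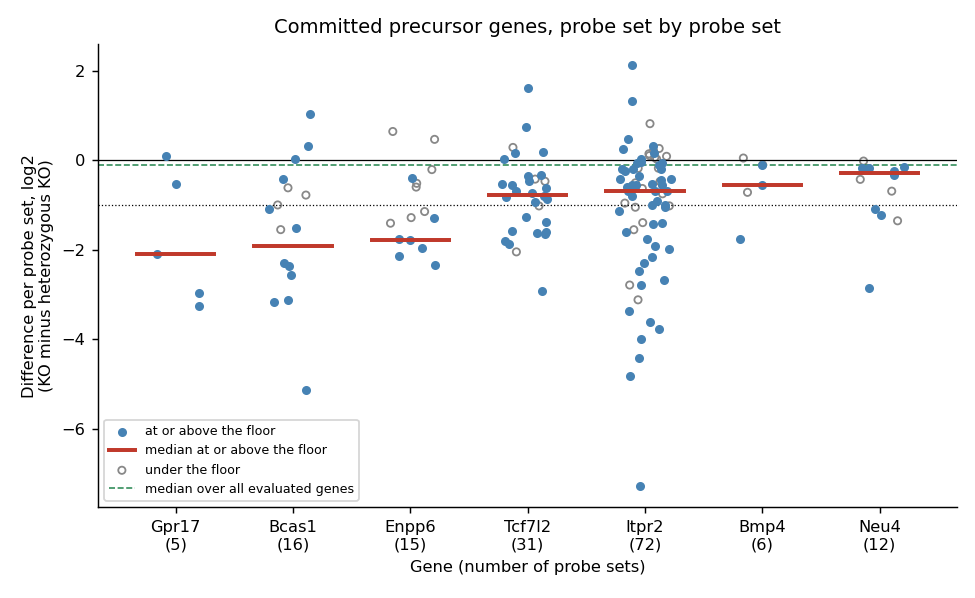
Log2 difference (KO minus heterozygous KO) of each of the 157 probe sets, by gene, with filled points at or above the floor of 5.86, open points under it, red bars at the gene medians, a dotted line at 2-fold lower and a dashed line at the median of all genes (-0.11). Gpr17, Bcas1 and Itpr2 each hold probe sets near 0 beside probe sets at -3 or lower, while the 7 bright Enpp6 probe sets all lie between -2.33 and -0.39.

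Across the 7 genes together, 96 of 112 bright probe sets, or 85.7%, were lower on the KO array. Of all bright probe sets with 1 symbol, 57.4% were. At least 2-fold lower were 50 of them, or 44.6%, against 11.0% of all bright probe sets with 1 symbol. At least 4-fold lower were 25, or 22.3%, against 2.60%, and at least 8-fold lower were 11, against 0.639%. Only 4 were at least 2-fold higher, or 3.57% against 9.24%. Itpr2 holds 51 of the 112, and without it the counts were 30 of 61 for 2-fold and 13 of 61 for 4-fold. Probe sets of 1 gene share its transcripts and are not replicates, so these shares describe 7 genes on 2 arrays.

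The size differed between brightness bands. Between the floor and 7.37, the 75th percentile, the 53 member probe sets had a median of -1.08. Above it the 59 brightest had a median of -0.68, and under the floor the 45 dim ones had -0.51. Over all probe sets with 1 symbol the same bands gave -0.10, -0.11 and -0.04. In 23 of the 112 the KO value was under the floor and the heterozygous value at or above it. Such probe sets enter through the heterozygous array alone, which favours large differences, and their sizes are uncertain. The largest drop was of this kind in Gpr17, Neu4, Tcf7l2, Bcas1 and Itpr2, but not in Enpp6 and Bmp4. The shares of 4-fold and 8-fold lower probe sets given above include such probe sets.

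**Figure D3:**
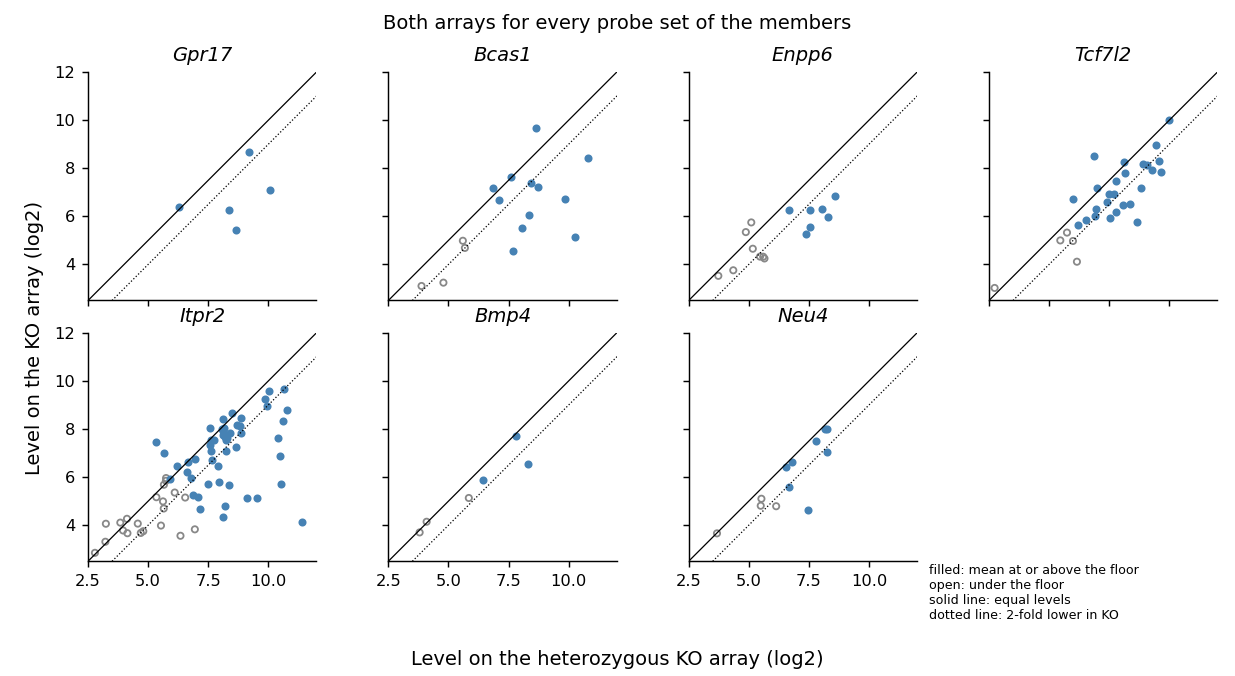
Level of each member probe set on the KO array against its level on the heterozygous array, both log2, with a solid line for equal levels and a dotted line for 2-fold lower on the KO array. Neu4 points lie mostly near the solid line, whereas many Gpr17, Bcas1 and Itpr2 points lie under the dotted line.

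Closest to Gpr17 by the size of the difference, among 12457 other named genes with at least 5 bright probe sets, were Cnp, Pde1a, Mag, Casq2 and Mmaa. With 2 arrays, likeness can mean no more than an equal difference. Cnp, an enzyme of myelin, stood at -2.10 (6.66 on the KO array against 9.46, 6 of 6 probe sets lower). Mag, a myelin adhesion protein, stood at -2.12 (7.38 against 9.04, 13 of 14 lower). The phosphodiesterase Pde1a was at -2.11 and Mmaa, which serves vitamin B12 metabolism, at -2.05. Casq2, a calcium-binding protein of internal stores, was at -2.05 with only 3 of 5 probe sets lower and was not called.

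Relatives of the members by sequence family lay on both sides of 0. Of 15 listed relatives 13 were evaluated, with a median of -0.01, 7 below 0 and 6 above, and none reached 2-fold. Of all evaluated genes 65.2% were below 0, 1.12% were called lower and 1.13% higher. The sialidases Neu1, Neu2 and Neu3 stood at -0.07, -0.04 and 0.09. Of the Enpp family, Enpp1, Enpp3, Enpp4, Enpp5 and Enpp7 lay between -0.01 and 0.11, and Enpp2, which mature oligodendrocytes also make, was at -0.71. Itpr1, the main neuronal receptor of its family, stood at -0.63 (55 of 68 probe sets lower), near Itpr2, while Itpr3 was at -0.03. P2ry1, related to Gpr17, was lowest at -0.88 (6 of 7 probe sets lower), and Enpp1 was highest.

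Other oligodendrocyte lineage genes are given by stage, to be read against the 65.2% of all evaluated genes that were below 0 and the 1.12% that were at least 2-fold lower. Of 10 other genes of committed precursors and newly formed oligodendrocytes, all 10 were below 0, with a median of -0.45, and 2 were past the 2-fold rule. These were Ust, a sulfotransferase of glycosaminoglycans, at -1.31 (7 of 8 probe sets lower) and Lims2, an adhesion adaptor, at -1.15 (9 of 10). The kinase Fyn, which serves myelination, was at -0.87. All 12 early precursor genes were below 0, with a median of -0.37, and 2 were past the rule. These were Pdgfra, the growth factor receptor of early precursors, at -2.41 and Lhfpl3 at -1.59. All 8 evaluated transcription factors of the lineage were below 0 too, with a median of -0.38, none past the rule, and with Nkx2-2 lowest at -0.57 and Sox10 highest at -0.09.

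Myelin and other mature oligodendrocyte genes had the lowest median of the lists, -1.07 over 14 evaluated genes. All 14 were below 0 and 8 were past the rule, against 65.2% and 1.12% of all genes. Largest were Ugt8a, an enzyme of myelin lipid synthesis, at -2.98, then Mag, Cnp and the iron carrier Trf at -1.52. On the KO array these 14 genes had levels from 5.89 to 8.68, with a median of 7.34. On the heterozygous array they had levels from 6.32 to 9.52, with a median of 8.87. Fewer oligodendrocyte-lineage cells in a sort and less RNA per cell cannot be told apart in such samples, nor can either be told apart from a difference within AgRP neurons. The part of oligodendrocyte RNA in the Gpr17 difference was not tested.

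**Figure D4:**
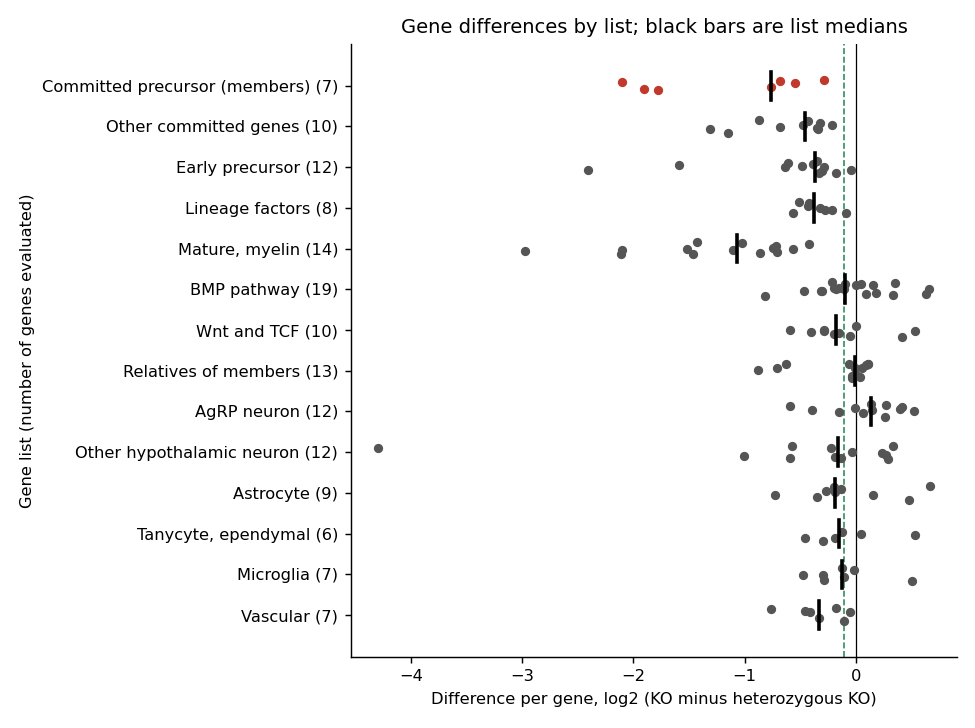
Log2 difference (KO minus heterozygous KO) of each evaluated gene, in rows by gene list with the number of genes, members in red, black bars at list medians and a dashed line at the median of all genes (-0.11). The 5 oligodendrocyte rows lie wholly below 0, with medians from -1.07 to -0.37. The vascular row does too, with a median of -0.33, while the AgRP neuron row has a median of 0.14.

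Medians for other cell types ran from -0.33 to 0.14, against -0.11 for all genes. The vascular end of this range was close to the early precursor median of -0.37. For AgRP neurons, 12 identity genes had a median of 0.14, 8 above 0 and none past the rule. They ran from -0.60 for Ghsr, the ghrelin receptor, to 0.52 for the melanocortin receptor Mc3r. The 9 astrocyte genes, which matter here because astrocytes make Itpr2 and Tcf7l2, had a median of -0.19, with Gfap at 0.66 and the glutamate transporter Slc1a3 at -0.73. Medians were -0.15 for 6 tanycyte and ependymal genes (Tmem212 0.53, Vim -0.46), -0.12 for 7 microglial genes (Aif1 0.50, Fcrls -0.47) and -0.33 for 7 vascular genes, all below 0 (Pecam1 -0.05, Cdh5 -0.77). None of these 29 genes passed the rule, and of all evaluated genes only 1.12% were called lower and 1.13% higher. Below 0 were 65.2% of all genes. For other hypothalamic neurons, 12 marker genes had a median of -0.16. At least 2-fold lower were 2 of them, as many as among the 12 early precursor genes, against 1.12% of all genes. These were the glutamate transporter Slc17a6 at -4.29 and the oxytocin gene Oxt at -1.01.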

How the data were processed

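The deposited table holds log2 values, 1 per probe set and array. The log2 scale was read from the values, which ran from 2.53 to 14.13 with a median of 5.85 on each array. RMA and Partek made them, per the submitters' processing notes, with no version, role or order. RMA as usually run gives both arrays the same distribution, which hides a change in total RNA. Neither a genome build nor an annotation release is given in the sources used here.

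Of 1235936 probe sets, 318760 had 1 symbol in the platform annotation, 6684 several and 910492 none there. No probe set with several symbols named a member. Genotypes were taken from the labels. Named are the members, Foxo1, Agrp and Npy, up to 4 called genes of each list or else its highest and lowest gene, and the 5 genes nearest to Gpr17, leaving out chemosensory receptors and unnamed gene models. Further genes were named after their values were seen. The 7 members and the 13 other lists were chosen with earlier results of these data known. The summary per gene was tested on simulated data, with differences shuffled among probe sets of like brightness. Each changed gene there had the same shift in all its probe sets. It therefore does not cover genes whose probe sets differ by unlike amounts. Alternatives changed the floor, the summary, the minimum number of probe sets, the scaling and the annotation. The number of arrays limits the precision. The tools were pandas 2.3.3, numpy 2.4.6, statsmodels 0.14.6 and matplotlib 3.10.9 under Python 3.11.15.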

Additional observations from a re-analysis of the deposited data

How the results depend on the processing

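Gpr17 stayed past the 2-fold rule under the 11 alternatives that evaluated it, from -2.10 to -1.32. At -1.32 it had 3 of 4 probe sets lower, exactly the 75% the rule asks for. Gpr17 had too few probe sets under a floor raised to the 75th percentile. Several of the 11 kept the same 5 probe sets and so left its value at -2.10. These removed the floor, asked it of the higher array only, or changed the minimum number of probe sets or the annotation. Each of the 7 members stayed below 0 under every alternative that evaluated it. The count of members at least 2-fold lower was 3. Under the floor raised to the 75th percentile it was 0 of the 4 members evaluated, against 1.57% of all genes. Gpr17, Enpp6 and Bmp4 had under 3 probe sets there. With both arrays required to reach the floor it was 2 of 7, which loses Bcas1, against 0.70% of all genes. With the mean over probe sets it was 4, which adds Itpr2, against 1.53%. It was 5 with a 1.5-fold rule, which took 4.90% of all genes. The median over members, -0.76, was -1.22 with the mean over probe sets and -1.27 when genes needed 5 or more probe sets, which drops Bmp4. No paired analysis was possible because each genotype has 1 array.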
